A study of Mus musculus with 13 samples.

Results

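Nuclear genes for the subunits of the mitochondrial respiratory chain and ATP synthase were followed across white and brown adipose tissue of male C57BL/6J mice. Members were taken by gene symbol: the Nduf genes of complex I without assembly factors, Sdha to Sdhd of complex II, the Uqcr genes of complex III, the Cox4 to Cox8 genes of complex IV and the Atp5 genes of complex V without Atp5s and pseudogenes. The arrays carried 85 such genes among 20138 named genes: 38 of complex I, 4 of complex II, 8 of complex III, 18 of complex IV and 17 of complex V. Tests covered 83 of them, because Cox7b2 and Cox8c were not well above background on every array of any group.

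Fv2E-PERK joins the kinase domain of PERK, a sensor of stress in the endoplasmic reticulum, to a domain that the ligand AP20187 dimerizes. The 5 groups held 12 arrays in all, each hybridised with Cy3-labelled product of 150 ng total RNA. Brown adipose tissue (BAT) came from Fv2E-PERK mice given AP20187 (2 arrays, replicates 1 and 2) or vehicle (2 arrays, replicates 2 and 3). White adipose tissue (WAT) came from Fv2E-PERK mice given AP20187 (3 arrays), Fv2E-PERK mice given vehicle (2 arrays) and wild-type mice with no injection recorded (3 arrays). AP20187 was injected into the peritoneum at 100 ng per g and tissue was taken 12 h later, and the vehicle was water with 4% ethanol, 10% PEG-400 and 1.75% Tween-20. The protocol text names muscles as the tissue collected, whereas the sample labels name WAT or BAT. The labels spell out neither the promoter that drives the transgene nor the depot of white fat, and no wild-type mouse received AP20187. They also do not say that arrays of a group come from separate animals, so the p-values reflect only how much these arrays spread.

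The respiratory chain passes electrons from NADH (complex I) and succinate (complex II) through complex III and cytochrome c to oxygen at complex IV. Complexes I, III and IV pump protons across the inner membrane, and complex V, the ATP synthase, makes ATP from the gradient. Brown adipocytes are packed with mitochondria whose gradient is discharged as heat by uncoupling protein 1 (Ucp1), and brown fat of rodents is known for little ATP synthase relative to its respiratory chain. Several subunits of complex IV exist as isoforms of separate genes, one general and one found mainly in heart, muscle and other tissues of high oxidative rate.

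Each level below is a log2 signal from which the 75th percentile of its array was subtracted, so 1 unit is a 2-fold difference and levels of different genes cannot be set against each other. A change passed the test at an adjusted p under 0.05 (limma, Benjamini-Hochberg over 24467 features). Spots well above background made up 46.4% on both BAT AP20187 arrays, 46.8% and 49.0% with BAT vehicle, 49.0% to 51.5% with WAT AP20187, 61.2% and 64.0% with WAT vehicle and 57.9% to 60.6% in wild type. Ucp1 was well above background on 4 of 4 BAT arrays, and on 1 of 3 WAT AP20187 arrays, 0 of 2 WAT vehicle arrays and 0 of 3 wild-type arrays. Its level was at least 42471-fold higher in BAT vehicle than in WAT vehicle (adjusted p = 1.18e-05). Ucp1 met the filter on dim probes only through the BAT groups, which tilts this test toward BAT. The mean of 11 brown adipocyte markers lay at 4.63 to 5.56 on the BAT arrays and at -1.48 to -0.22 on the WAT arrays.

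Several arrays stood apart in markers of other cells. Transcripts of the epididymis averaged 8.10 and -0.015 on WAT AP20187 1 and 2, against -5.09 on WAT AP20187 3, -5.74 and -6.13 with vehicle and -5.18 to -3.21 in wild type. The 10 adipocyte markers measured on every array averaged 7.12 on WAT AP20187 1 and 8.13 and 8.07 on WAT AP20187 2 and 3, against 7.72 and 7.71 on the WAT vehicle arrays. The 9 endothelial markers measured on every array averaged 1.09 on WAT AP20187 1, against 2.27 to 2.69 on the other WAT arrays. Liver markers averaged 4.34 on WAT vehicle 2, against 1.002 on WAT vehicle 1, 1.34 to 2.42 on the WAT AP20187 arrays and -0.093 to 1.67 in wild type. Areas of weak signal covered 2.54% of the spots of WAT AP20187 2 and 0.774% of those of WAT AP20187 3. Spots flagged as outliers numbered 863, 794 and 243 on WAT AP20187 1 to 3. They numbered 121 and 416 on WAT vehicle 1 and 2, and 92 to 131 in wild type. Skeletal muscle markers averaged 4.44 and 3.65 on BAT AP20187 1 and 2 and 1.16 and 5.32 on BAT vehicle 2 and 3, against -2.86 to -0.62 on all WAT arrays. All BAT arrays lay on 1 slide and all WAT arrays on the other 2, so slide and tissue cannot be told apart.

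The median level of the 83 genes was 8.48 and 8.56 on the BAT AP20187 arrays and 8.79 and 8.45 on the BAT vehicle arrays. It was 6.64, 7.49 and 7.02 on WAT AP20187 1 to 3, 6.37 and 6.52 on WAT vehicle 1 and 2, and 6.38, 6.54 and 6.25 in wild type. Every BAT array thus lay above every WAT array, and among WAT arrays the AP20187 arrays were highest. Within most groups 1 array was highest for most genes. BAT vehicle 2 held the higher value of 77 members and BAT vehicle 3 that of 6, whereas BAT AP20187 1 and 2 divided them into 36 and 47. Brown adipocyte markers had the same order, with 5.25 on BAT vehicle 2 and 4.63 on BAT vehicle 3. Among WAT AP20187 arrays measured for 76 members, array 1 was lowest for 69 and array 2 highest for 72. WAT vehicle 2 was the higher vehicle array for 66 of 83 members, and wild type 2 the highest of its group for 68. These ranks were not counted over all features, so they do not show that the subunits stand out. Tissue pieces with fewer cells of a type and cells with less RNA each cannot be told apart in such bulk samples.

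**Figure D1:**
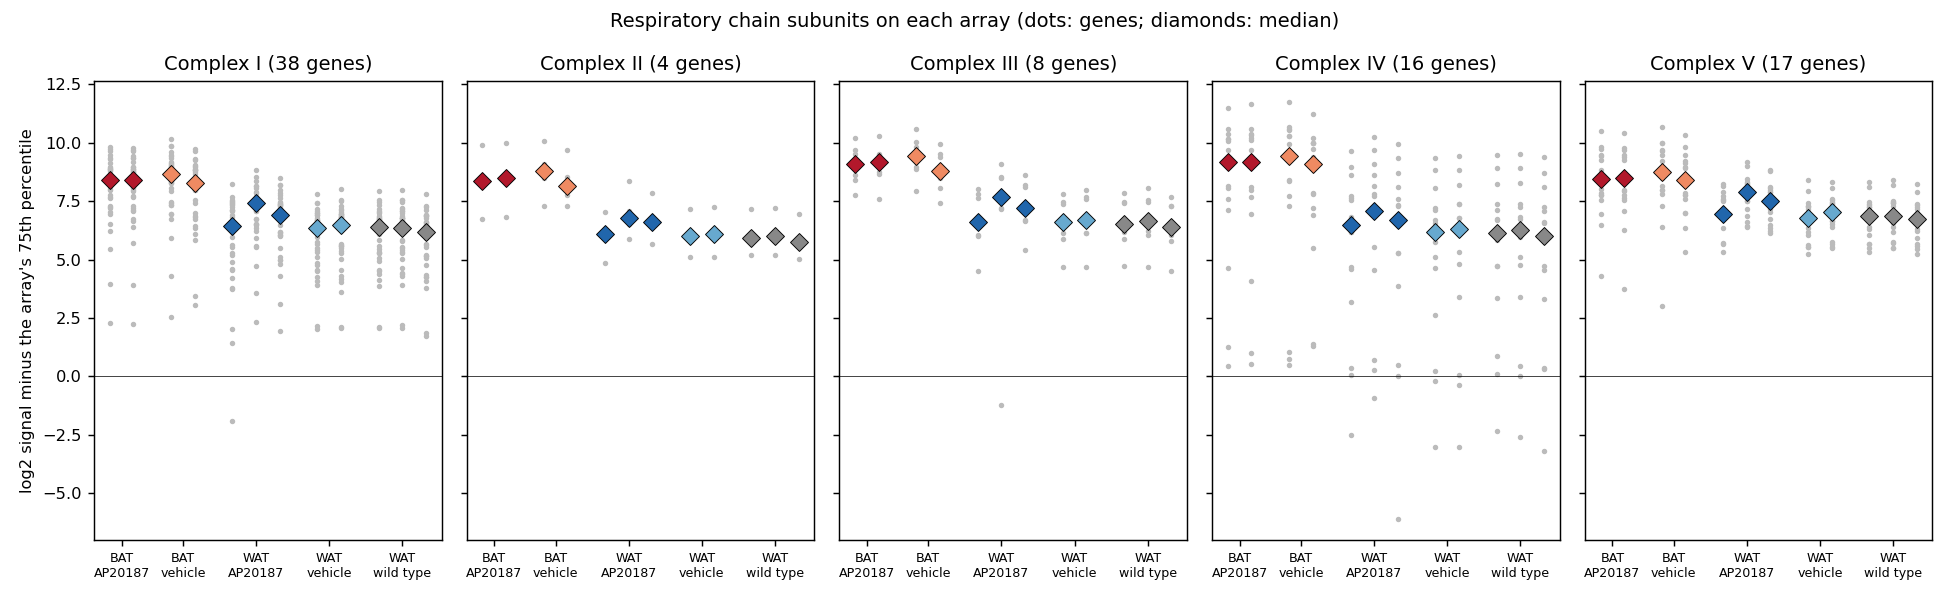
Level of each tested subunit gene (dots) and their median (diamonds) on each of the 12 arrays, by complex; the vertical axis is log2 signal minus the array's 75th percentile. In all 5 complexes the BAT medians lie above the WAT medians, and WAT AP20187 2 is the highest WAT array.

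The first question was how brown and white fat of vehicle-treated Fv2E-PERK mice differed. Subunit genes of all 5 complexes were higher in BAT: 76 of 83 passed the test, each higher in BAT, against 14.3% of all features called higher (23.4% in either direction). They were 36 of 38 genes of complex I, 4 of 4 of complex II, 7 of 8 of complex III, 16 of 16 of complex IV and 13 of 17 of complex V. Over all 83 genes the median difference was 2.16 on the log2 scale, a 4.48-fold higher level in BAT, where all features had a median of 0.11. BAT vehicle values lay wholly above WAT vehicle values for 80 members and wholly below for 1 (Atp5g1), against 39.1% and 29.9% of all features. For 22 members with several tested probes, every probe was higher in BAT, and for 19 of them the probes lay within 0.5 of each other.

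Most genes differed by a similar amount. Of the 83 members, 60 lay within 0.5 and 73 within 1 log2 unit of the median, and the quartiles of the genes that passed were 1.97 and 2.45. The complex medians of the tested genes were 2.16 for I, 2.43 for II, 2.43 for III, 2.26 for IV and 2.06 for V. Genes that passed ranged from 1.03 for Cox4i2 to 7.002 for Cox7a1. The plot of differences by complex shows the narrow band and the few genes outside it.

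**Figure D2:**
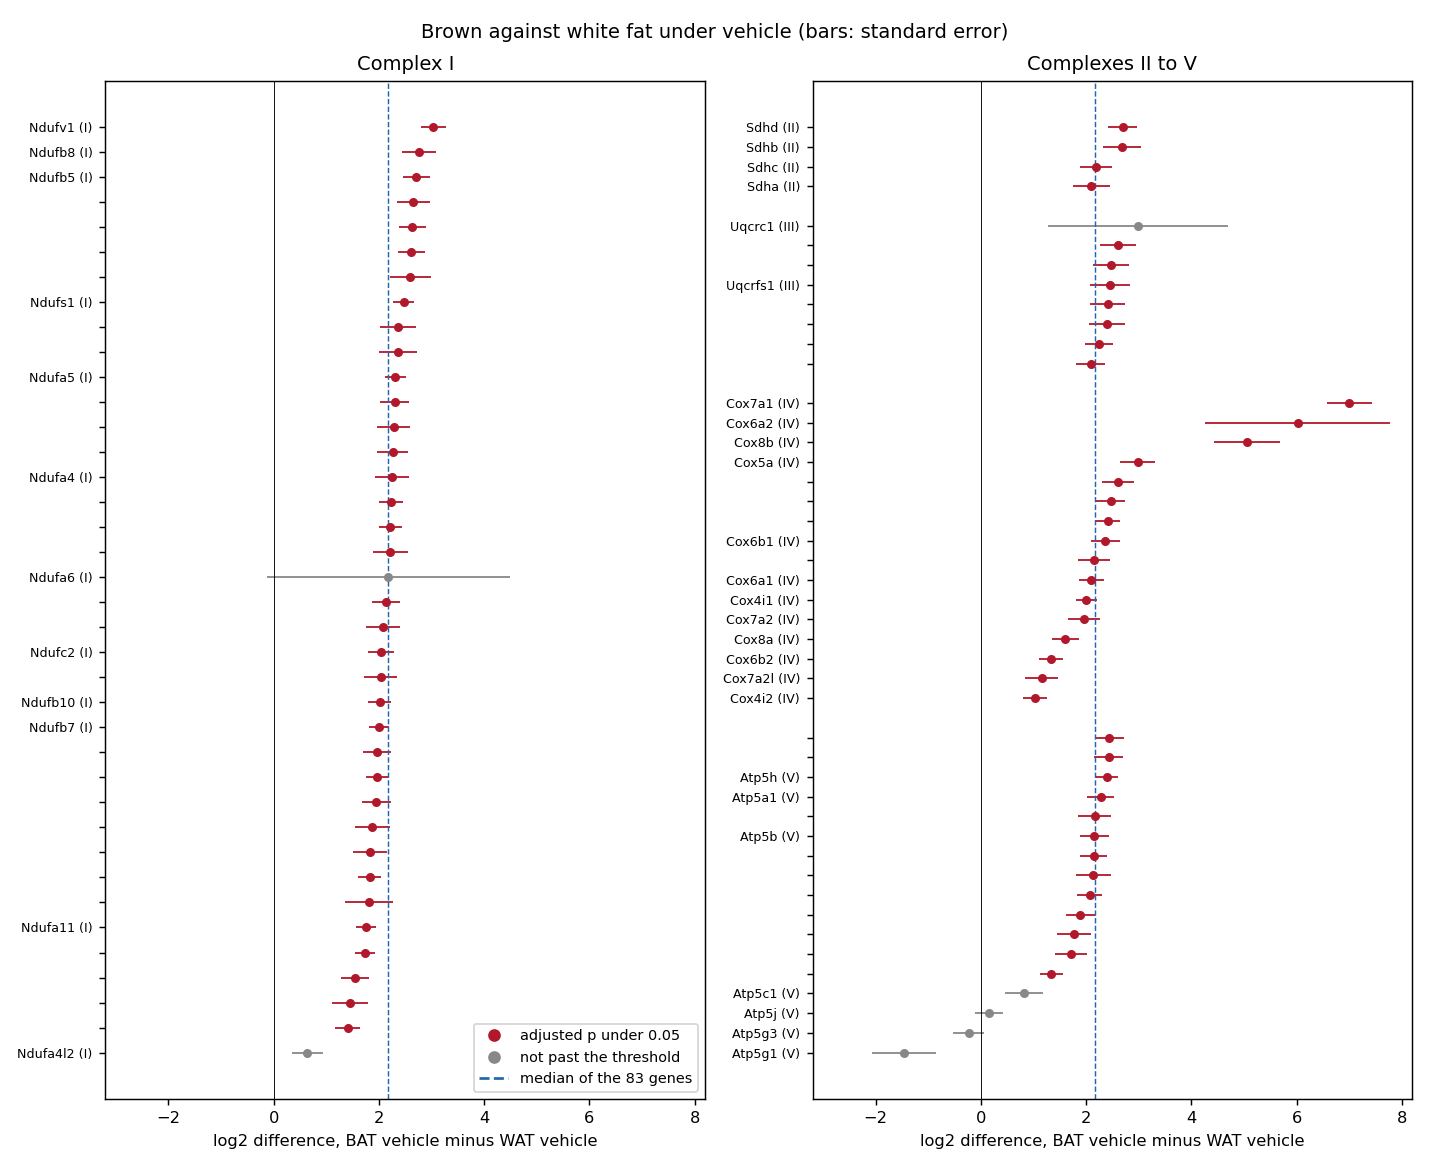
Log2 difference of BAT vehicle minus WAT vehicle for each of the 83 genes (horizontal axis), by complex, with names for only some of the genes, and with the standard error as a bar; red marks an adjusted p under 0.05. Cox7a1, Cox6a2 and Cox8b lie right of the band around the dashed median of 2.16, and Atp5g1, Atp5g3, Atp5j, Atp5c1, Ndufa4l2, Cox4i2 and Cox7a2l lie left of it.

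In complex I, Ndufv1, the flavin subunit that takes electrons from NADH, had 9.84 and 9.25 on the BAT vehicle arrays, against 6.51 and 6.52 on the WAT vehicle arrays. The groups did not overlap, and the difference of 3.03 (SE 0.24, adjusted p = 0.000294) was the widest of the complex. Ndufs1, the largest iron-sulfur subunit, had 8.28 and 7.97 in BAT against 5.74 and 5.57 in WAT, a difference of 2.47 (SE 0.20, adjusted p = 0.000302). The accessory subunit Ndufb8 of the membrane arm had 10.17 and 9.70 in BAT against 7.17 and 7.16 in WAT, which differed by 2.77 (SE 0.32, adjusted p = 0.000839). Core and accessory subunits were thus both higher in BAT, in each case on both arrays.

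Exceptions in complex I were Ndufa6 and Ndufa4l2. Ndufa6, an accessory subunit of the LYR family, had 7.92 and 7.52 on the BAT vehicle arrays against 5.49 and 5.59 on the WAT vehicle arrays. Its difference of 2.18 (SE 2.31, adjusted p = 0.551) had a wide error because the spread is shared by all arrays and WAT AP20187 1 read -1.92. Ndufa4l2, a paralogue of Ndufa4 induced by hypoxia, had 2.56 and 3.04 in BAT and 2.18 and 2.13 in WAT, a difference of 0.64 (SE 0.30, adjusted p = 0.16). Ndufa4, named for complex I but found in complex IV, had 8.79 and 8.21 in BAT against 6.11 and 6.40 in WAT and differed by 2.25 (SE 0.32, adjusted p = 0.00184).

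Complex II, which also works in the citric acid cycle, was higher in BAT in each subunit. Sdha, the flavoprotein that oxidises succinate, had 8.48 and 7.74 in BAT vehicle against 6.05 and 5.97 in WAT vehicle, a difference of 2.10 (SE 0.35, adjusted p = 0.00375). Sdhb, the iron-sulfur subunit, had 10.07 and 9.67 against 7.15 and 7.23 and differed by 2.68 (SE 0.36, adjusted p = 0.00147). The membrane anchors Sdhc and Sdhd differed by 2.18 (SE 0.30) and 2.69 (SE 0.27). No BAT value of these 4 genes reached down to a WAT vehicle value.

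In complex III, 7 of 8 genes passed, with differences of 2.09 for Uqcr11 to 2.61 for Uqcrc2. Uqcrfs1, the Rieske iron-sulfur protein, had 8.85 and 8.07 in BAT vehicle against 5.87 and 6.13 in WAT vehicle, a difference of 2.46 (SE 0.38, adjusted p = 0.00259). Uqcrc1, a core subunit, had 7.91 and 7.42 in BAT against 4.67 and 4.69 in WAT. Its difference of 2.98 (SE 1.72, adjusted p = 0.247) did not pass, with an error raised by a value of -1.23 on WAT AP20187 2, where the probe lay in an area of weak signal. Without the areas of weak signal the difference was 2.98 with an adjusted p of 0.00058.

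Complex IV held the 3 genes with the widest gaps, all of them isoforms, and its other subunits lay closer to the module. Cox4i1, the largest nuclear-encoded subunit, had 10.26 and 10.00 in BAT vehicle against 8.07 and 8.19 in WAT vehicle, a difference of 2.003 (SE 0.20, adjusted p = 0.000493). Cox5a, which lies on the matrix side, had 10.55 and 9.99 against 7.21 and 7.37 and differed by 2.98 (SE 0.33, adjusted p = 0.000718). Cox7a2l had 7.74 and 7.20 against 6.26 and 6.37 and differed by 1.15 (SE 0.32, adjusted p = 0.0298), less than most of the module.

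Isoforms of complex IV differed from each other in how far BAT stood above WAT. Cox7a1, the isoform of heart, muscle and brown fat, had 10.30 and 9.73 on the BAT vehicle arrays against 2.62 and 3.40 on the WAT vehicle arrays. Its difference of 7.002 (SE 0.43, adjusted p = 5.84e-05) is a 128-fold higher level in BAT. Cox7a2, the general isoform, had 8.38 and 7.86 against 6.08 and 6.22 and differed by 1.97 (SE 0.30, adjusted p = 0.00259). The gap between BAT and WAT was thus 7.002 for one isoform and 1.97 for the other, and the difference between these gaps was not itself tested.

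Cox8b, the isoform of heart and muscle, had 10.58 and 9.98 in BAT vehicle against 5.12 and 5.33 in WAT vehicle and differed by 5.06 (SE 0.62, adjusted p = 0.00102). Cox8a, the general isoform, had 10.67 and 10.20 against 8.83 and 8.84 and differed by 1.60 (SE 0.26, adjusted p = 0.00305). Cox8a passed in 24 of 26 settings, with differences from 0.32 to 1.83. Both pairs behaved alike in that the oxidative-tissue isoform showed the wider gap and groups did not overlap.

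Cox6a2, the isoform of heart and skeletal muscle, had 0.48 and 5.51 on BAT vehicle 2 and 3 against -3.03 and -3.02 on the WAT vehicle arrays. The BAT vehicle arrays disagreed with each other by more than most genes differed between tissues. Its difference of 6.02 (SE 1.76, adjusted p = 0.038) passed, but was 3.51 with an adjusted p of 0.187 without BAT vehicle 3, and 8.53 with an adjusted p of 0.0178 without BAT vehicle 2. Counting the setting reported here, 15 of 25 settings gave an adjusted p under 0.05. Cox6a1, the general isoform, had 11.74 and 11.23 in BAT against 9.35 and 9.43 in WAT and differed by 2.09 (SE 0.24, adjusted p = 0.000765).

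**Figure D3:**
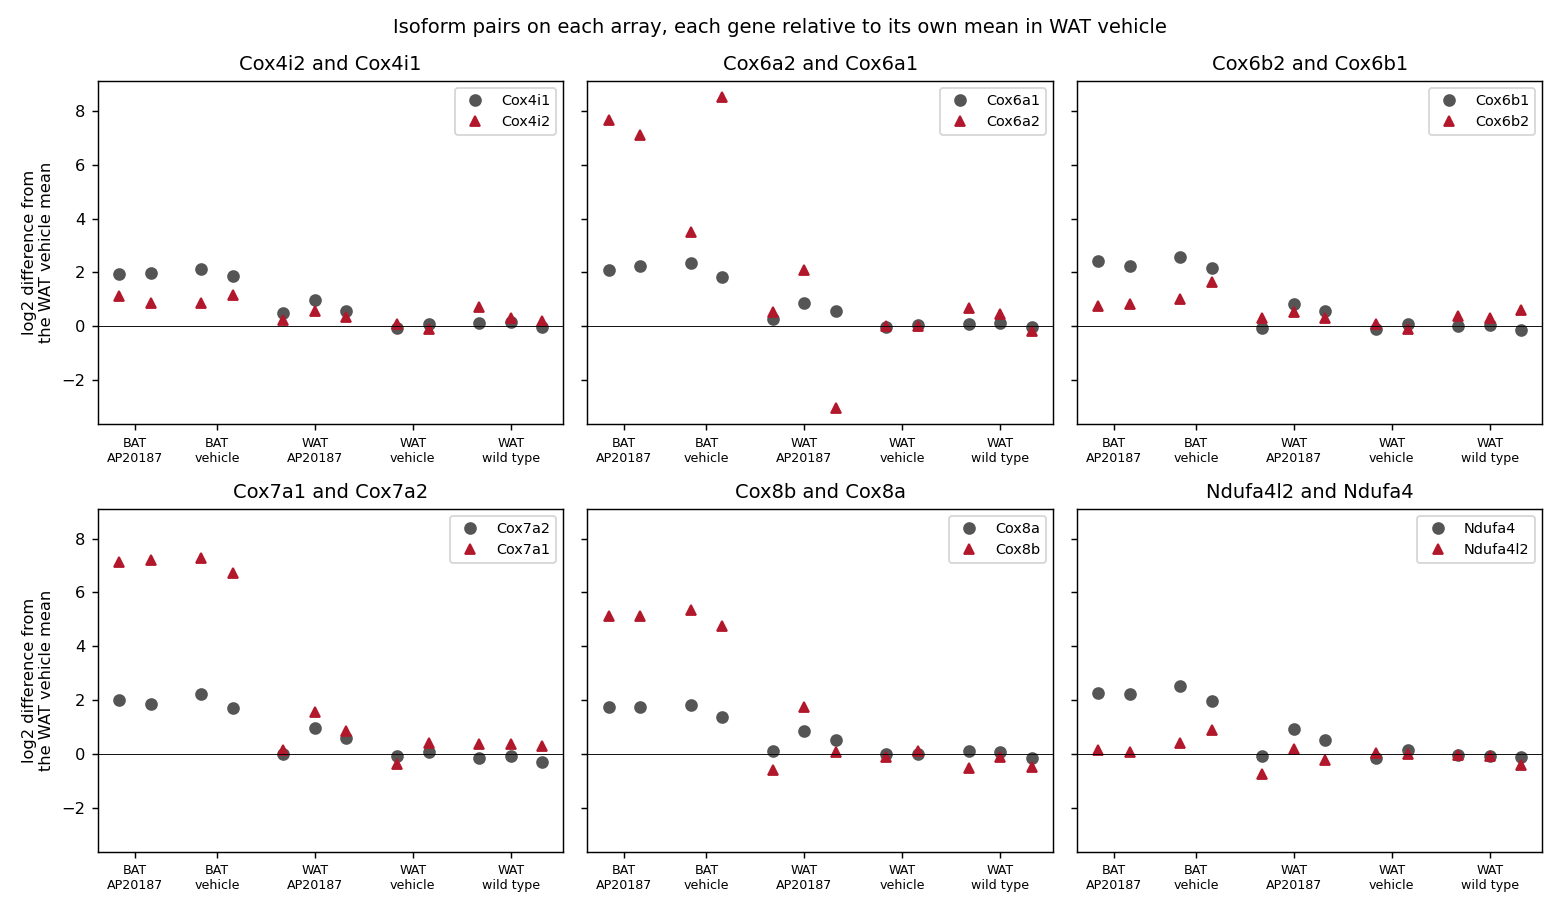
Level of both genes of 6 isoform pairs on each array, as the log2 difference from the gene's own mean in WAT vehicle; red triangles mark the tissue-restricted isoform and grey dots the general one. Cox7a1 and Cox8b stand far above Cox7a2 and Cox8a on all 4 BAT arrays, while Cox4i2, Cox6b2 and Ndufa4l2 stand at or below their partners there.

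Skeletal muscle markers moved with Cox6a2. All 16 markers had a higher mean in BAT vehicle than in WAT vehicle and 12 passed, against 14.3% of all features called higher. Their mean level was 1.16 on BAT vehicle 2 and 5.32 on BAT vehicle 3, against -2.86 and -2.54 on the WAT vehicle arrays. Of the 16, 15 were well above background on BAT vehicle 2, all 16 on BAT vehicle 3 and 12 on each WAT vehicle array. Markers dim on the WAT arrays met the filter on dim probes only through the BAT groups. That tilts their tests toward BAT, so their passes add no support. BAT vehicle 3 was thus high for muscle markers and Cox6a2 at once, and the part of muscle RNA in the Cox6a2 result was not tested. Cox7a1 and Cox8b had 9.73 and 9.98 on BAT vehicle 3 and 10.30 and 10.58 on BAT vehicle 2, the opposite order, and both passed in all 26 settings tried. Over those settings their differences ran between 6.22 and 7.39 for Cox7a1 and between 4.06 and 5.35 for Cox8b.

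**Figure D4:**
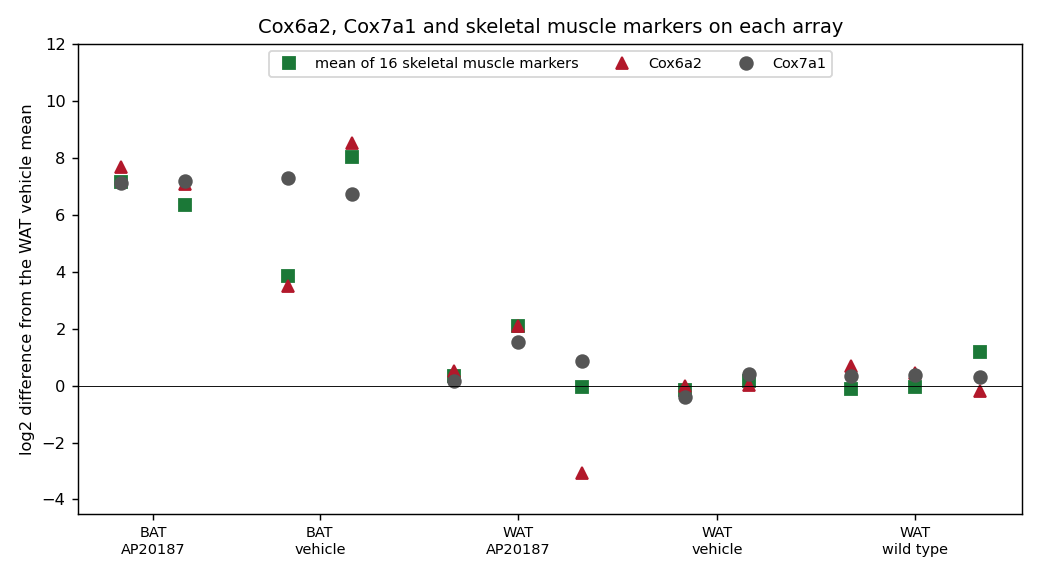
Mean of 16 skeletal muscle markers (squares), Cox6a2 (triangles) and Cox7a1 (dots) on each array, as log2 difference from the WAT vehicle mean. Cox6a2 follows the muscle markers on the 4 BAT arrays, low on BAT vehicle 2 and high on BAT vehicle 3, whereas Cox7a1 stays between 9.73 and 10.30 in level on all 4.

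The remaining pairs had narrow gaps. Cox4i2, an isoform of lung and hypoxic tissue, had 1.03 and 1.32 in BAT vehicle against 0.24 and 0.058 in WAT vehicle and differed by 1.03 (SE 0.23, adjusted p = 0.0134). Cox6b2, an isoform of testis, had 0.74 and 1.37 against -0.17 and -0.37 and differed by 1.33 (SE 0.23, adjusted p = 0.00449), whereas the general Cox6b1 had 7.27 and 6.89 against 4.63 and 4.80 and differed by 2.37 (SE 0.28). Both minor isoforms were well above background on each array used.

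In complex V the catalytic genes followed the respiratory chain. Atp5a1, the alpha subunit, had 9.45 and 9.14 in BAT vehicle against 6.96 and 7.08 in WAT vehicle and differed by 2.28 (SE 0.26, adjusted p = 0.000786). Atp5b, the beta subunit that holds the catalytic sites, had 10.67 and 10.34 against 8.40 and 8.29 and differed by 2.15 (SE 0.27, adjusted p = 0.00108). Atp5h of the peripheral stalk differed by 2.40 (SE 0.20, adjusted p = 0.000237). These 3 genes lay close to the module's median of 2.16.

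Atp5g1, Atp5g2 and Atp5g3 encode the same mature c subunit, which forms the rotor ring, from separate genes. Atp5g1 had 4.29 and 3.73 on BAT AP20187 1 and 2 and 3.03 and 5.33 on BAT vehicle 2 and 3, against 5.64 and 5.66 on the WAT vehicle arrays, so each BAT array was below each WAT array. The difference of BAT vehicle minus WAT vehicle was -1.47 (SE 0.61, adjusted p = 0.119). Without BAT vehicle 3 it was -2.62 and without BAT vehicle 2 it was -0.32, each with 1 BAT vehicle array left, so 1 array decided its size. Among BAT arrays Atp5g1 was lowest on BAT vehicle 2 and highest on BAT vehicle 3, as were the muscle markers, whose part in this result was not tested.

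Atp5g3 had 7.97 and 7.58 in BAT vehicle, 7.94 and 8.08 in WAT vehicle and a difference of -0.23 (SE 0.30, adjusted p = 0.625). Under quantile scaling that difference was -1.14 with an adjusted p of 0.0166. Atp5g2 had 8.74 and 8.57 against 7.26 and 7.37 and was the c subunit gene that passed, with 1.34 (SE 0.21, adjusted p = 0.00296). Whether the probes of these paralogues bind each other's transcripts was not tested. Atp5j of the peripheral stalk had 6.38 and 6.35 in BAT against 6.04 and 6.39 in WAT, and Atp5c1, the rotating gamma subunit, had 7.97 and 7.002 against 6.70 and 6.64. Their differences of 0.15 (SE 0.26, adjusted p = 0.738) and 0.82 (SE 0.37, adjusted p = 0.142) did not pass, although the Atp5c1 values did not overlap.

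The scaling changed the size of these tissue differences. Relative to the median of all features, the median of the 83 genes was 2.06 under the 75th percentile, 1.31 under quantile scaling and 1.28 with normexp background correction added. Quantile scaling called 70 members higher and 1 lower in BAT, and normexp with quantile scaling called 72 higher and 2 lower. The share of all features called in these fits is not given here, so the counts cannot be read as particular to the subunits. Across the 25 alternatives between 70 and 76 of the 76 calls were kept. Alternatives that drop a BAT vehicle or WAT vehicle array leave 1 array in that group, so their calls say little. Markers of other cells also differed between BAT vehicle and WAT vehicle. All 10 liver markers and 10 of 11 macrophage markers were below 0 in the difference. Of these, 6 and 4 passed, against 9.14% of all features called lower. Only 4 of 10 liver markers were well above background on each BAT vehicle array, against 10 on each WAT vehicle array. For macrophage markers it was 9 and 10 of 11 on BAT vehicle 2 and 3, against 11. Markers dim in BAT met the filter on dim probes only through the WAT groups. That tilts their tests toward WAT, so such passes add no support. The part of these markers in the subunit results was not tested.

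Promoter sequences of RefSeq (GRCm38.p6) were matched by gene identifier for 69 members. The 250 bases upstream of the start were searched on both strands, except for TATAAA. The site of nuclear respiratory factor 1, read as GCGCA, any base, GCGC, was present for 13 of the 69 members (18.8%), against 5.84% of 17492 genes. The ETS site CCGGAAG, bound by GABP, was present for 12 members (17.4%) against 10.2% of genes. The site of estrogen-related receptors, TNAAGGTCA, was present for 2 members (2.90%) against 1.11%, and the CRE TGACGTCA for 4 (5.80%) against 2.20%. The YY1 site was present for 0 members against 0.509% of genes, and TATAAA on the gene's strand for 2 (2.90%) against 9.11%.

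Promoters of 4 genes are printed as examples with and without matches: general subunits with several, and the isoforms with wide tissue gaps, each 5′ to 3′ on the gene's strand and ending 1 base before the start, with motif matches in capitals. Cox6a1 (chr5:115348959-115349208, minus strand) holds NRF1 matches starting at -162 and -117 and an ETS match at -16. Ndufb4, a membrane-arm subunit of complex I (chr16:37654369-37654618, minus strand), holds NRF1 matches at -191, -79 and -22 and an estrogen-related receptor match at -57. Cox7a1 (chr7:30183921-30184170, plus strand) and Cox8b (chr7:140900447-140900696, minus strand) hold no match of the 6 motifs in these windows, and nor do their general partners Cox7a2 and Cox8a.
Cox6a1: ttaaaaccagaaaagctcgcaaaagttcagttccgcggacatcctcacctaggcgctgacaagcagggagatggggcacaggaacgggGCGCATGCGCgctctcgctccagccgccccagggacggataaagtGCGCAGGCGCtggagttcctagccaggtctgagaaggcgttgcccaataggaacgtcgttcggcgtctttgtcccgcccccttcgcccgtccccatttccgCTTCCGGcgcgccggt
Ndufb4: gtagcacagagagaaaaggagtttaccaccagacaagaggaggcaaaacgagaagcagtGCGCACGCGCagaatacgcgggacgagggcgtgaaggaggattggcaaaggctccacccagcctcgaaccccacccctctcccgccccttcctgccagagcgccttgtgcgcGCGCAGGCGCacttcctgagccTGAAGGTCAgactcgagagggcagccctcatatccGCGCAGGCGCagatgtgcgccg
Cox7a1: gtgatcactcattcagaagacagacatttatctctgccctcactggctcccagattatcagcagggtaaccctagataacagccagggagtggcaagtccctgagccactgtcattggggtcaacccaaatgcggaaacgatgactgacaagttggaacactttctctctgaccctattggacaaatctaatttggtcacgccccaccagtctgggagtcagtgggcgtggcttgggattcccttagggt
Cox8b: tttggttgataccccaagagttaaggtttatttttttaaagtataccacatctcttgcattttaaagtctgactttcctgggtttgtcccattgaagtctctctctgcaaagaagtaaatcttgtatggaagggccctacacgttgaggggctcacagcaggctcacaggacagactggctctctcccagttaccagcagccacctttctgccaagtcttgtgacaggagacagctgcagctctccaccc

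Beside its promoter, the values of Ndufb4 were 9.06 and 8.82 in BAT vehicle against 6.68 and 6.94 in WAT vehicle. The difference of 2.13 (SE 0.26, adjusted p = 0.00102) was close to the 2.09 of Cox6a1, while Cox7a1 and Cox8b differed by 7.002 and 5.06. A match describes letters in a window and shows no binding.

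Genes that assemble or feed the chain were described beside its subunits in the same comparison of BAT vehicle with WAT vehicle. Electron carriers passed in 7 of 7 tested genes, each higher in BAT, with a median of 2.75. Gpd2, which passes electrons of cytosolic glycerol phosphate to quinone, differed by 3.73 (SE 0.47, adjusted p = 0.00111), Cyc1, the haem subunit of complex III, by 3.05 (SE 0.37, adjusted p = 0.000969), Etfdh, the dehydrogenase of electron transfer flavoprotein, by 2.75 (SE 0.46, adjusted p = 0.00365) and cytochrome c (Cycs) by 2.75 (SE 0.30, adjusted p = 0.000644). Each carrier gap was as wide as or wider than the median subunit except Dhodh at 0.96.

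Of 48 tested assembly factors, 46 had a difference above 0 and 26 passed (54.2%), all 26 higher in BAT, against 14.3% of all features called higher. Whether their gaps differ from those of the subunits was not tested. Of 15 tested factors of complex I, 11 passed (median 1.32), led by Ndufaf6 at 2.04 (SE 0.35), Ecsit at 1.98 (SE 0.37) and Ndufaf4 at 1.74 (SE 0.38). None of 4 factors of complex II passed (median 0.75), and 4 of 5 of complex III passed (median 1.39), led by Uqcc1 at 2.28 (SE 0.35). For complex V, 2 of 4 passed (median 0.68), Tmem70 at 1.60 (SE 0.33) and Atpaf2 at 1.56 (SE 0.36). For complex IV all 20 were above 0 and 9 passed (median 0.93), among them Taco1, an activator of translation, at 2.42 (SE 0.43) and Lrpprc, which stabilises mitochondrial messenger RNA, at 2.02 (SE 0.23). The copper chaperone Cox17 was well above background on 2 of 2 BAT vehicle arrays and 0 of 2 WAT vehicle arrays and was at least 5.80-fold higher in BAT. Cox17 met the filter on dim probes only through the BAT groups. That tilts its test toward BAT, so its pass (adjusted p = 0.02), counted above, adds no support.

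Of 14 regulators of mitochondrial biogenesis, 9 passed as higher and 1 as lower in BAT (median 1.22), against 14.3% and 9.14% of all features. The coactivators Ppargc1b and Ppargc1a differed by 4.39 (SE 0.45, adjusted p = 0.000489) and 2.05 (SE 0.37, adjusted p = 0.00522). The receptors Esrrg and Esrra, their partners, differed by 3.78 (SE 0.61, adjusted p = 0.0031) and 2.14 (SE 0.30, adjusted p = 0.00179). Nrip1, a corepressor of oxidative genes in fat, was lower in BAT, with 0.70 and 0.53 in BAT vehicle against 3.59 and 3.36 in WAT vehicle (difference -2.86, SE 0.23, adjusted p = 0.000176). Nrf1 had 0.44 and 0.57 in BAT against 0.18 and 0.18 in WAT, a difference of 0.32 (SE 0.16, adjusted p = 0.184).

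The second question was how white fat of Fv2E-PERK mice responded to AP20187. No subunit gene passed in WAT, where 2.35% of all features were called, 1.83% higher and 0.527% lower. At an unadjusted p under 0.05, 39 of 83 members were higher and 0 lower, against 16.3% and 6.07% of all features. The change was above 0 for 78 members, against 58.8% of all features, and its median was 0.57 against 0.15 over all features. AP20187 values lay wholly above vehicle values for 44 members and wholly below for 0, against 26.3% and 12.3% of all features. Complex medians were 0.57 for I, 0.43 for II, 0.56 for III, 0.54 for IV and 0.64 for V.

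The AP20187 arrays of WAT did not behave alike. Array 1 was above both vehicle arrays for 42 of 80 measured members and below both for 18, array 2 was above both for 79 of 80, and array 3 for 79 of 82. Such counts by array were not made over all features, so they do not show that the subunits stand out. Array 1 is the one with epididymal transcripts at 8.10 and with endothelial markers at 1.09, and the part of these in the result was not tested. Array 2, the highest for most members, also had the highest means of adipocyte markers (8.13) and muscle markers (-0.62) among WAT arrays. Without array 1, 34 members passed, all higher with AP20187, but the share of all features called in that fit is not given here. The count therefore cannot be read as particular to the subunits. The median relative to all features was then 0.57, against 0.43 with all arrays. Without WAT vehicle 2, the array with the most liver transcripts, it was 0.50 and 0 passed, with 1 vehicle array left. Without both arrays that carry epididymal transcripts it was 0.45. That leaves 1 AP20187 array, taken to vary like the other groups, so its 0 calls say little.

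The 5 members with the smallest p-values were accessory or structural subunits. Ndufb10, an accessory subunit of the membrane arm, had 7.52, 8.16 and 7.84 on WAT AP20187 1 to 3 against 6.97 and 7.10 on the vehicle arrays, a change of 0.81 (SE 0.20, adjusted p = 0.0644). All 3 AP20187 values lay above both vehicle values, and without array 1 the change was 0.97 with an adjusted p of 0.0301. Ndufb7, also of the membrane arm, had 7.24, 7.67 and 7.40 against 6.60 and 6.93, a change of 0.67 (SE 0.18, adjusted p = 0.0836). Cox4i1 had 8.60, 9.10 and 8.69 against 8.07 and 8.19, a change of 0.67 (SE 0.19, adjusted p = 0.0872).

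Atp5h had 7.89, 8.45 and 8.07 on WAT AP20187 1 to 3 against 7.42 and 7.56 with vehicle, a change of 0.64 (SE 0.19, adjusted p = 0.0957). Ndufa5, an accessory subunit of the matrix arm, had 7.53 and 7.09 on arrays 2 and 3, its spot on array 1 being dropped as an outlier, against 6.61 and 6.62, a change of 0.69 (SE 0.20, adjusted p = 0.104). Ndufv1 and Ndufs1 also lacked array 1: Ndufv1 had 7.49 and 7.14 against 6.51 and 6.52, and Ndufs1 had 6.45 and 6.15 against 5.74 and 5.57. Their changes of 0.80 (SE 0.24, adjusted p = 0.109) and 0.65 (SE 0.20, adjusted p = 0.116) did not pass. Both genes were above vehicle on each of the arrays left.

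Sdhb had 7.04, 8.35 and 7.83 with AP20187 against 7.15 and 7.23 with vehicle, and Sdha had 5.93, 7.07 and 6.43 against 6.05 and 5.97. Their changes were 0.55 (SE 0.33, adjusted p = 0.357) and 0.47 (SE 0.32, adjusted p = 0.42). The groups overlapped for both, with array 1 below both vehicle arrays.

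Uqcrfs1 had 6.03, 7.22 and 6.68 with AP20187 against 5.87 and 6.13 with vehicle (change 0.64, SE 0.35, adjusted p = 0.308), and Cox5a had 7.53, 8.63 and 8.08 against 7.21 and 7.37 (change 0.79, SE 0.30, adjusted p = 0.177). Atp5a1 had 6.98, 7.83 and 7.48 against 6.96 and 7.08 (change 0.41, SE 0.24, adjusted p = 0.342), and Atp5b had 8.15, 8.995 and 8.83 against 8.40 and 8.29 (change 0.31, SE 0.25, adjusted p = 0.477). Atp5g1 had 6.96, 6.39 and 6.20 on WAT AP20187 1 to 3 against 5.64 and 5.66 with vehicle, all 3 above both, with a change of 0.87 (SE 0.56, adjusted p = 0.387).

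Single low spots set the negative end of the range. Ndufa6 had -1.92, 6.74 and 6.16 on WAT AP20187 1 to 3 against 5.49 and 5.59 with vehicle and a change of -1.88 (SE 2.11, adjusted p = 0.605), which was 0.91 without array 1. Uqcrc1 had 4.49, -1.23 and 5.39 against 4.67 and 4.69 and a change of -1.79 (SE 1.57, adjusted p = 0.517), which was 0.25 without the areas of weak signal.

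In the isoform pairs of complex IV, no gene passed in WAT with AP20187. Cox7a1 had 3.17, 4.55 and 3.88 on WAT AP20187 1 to 3 against 2.62 and 3.40 with vehicle, a change of 0.85 (SE 0.39, adjusted p = 0.236), and Cox7a2 had 6.16, 7.11 and 6.73 against 6.08 and 6.22, a change of 0.52 (SE 0.28, adjusted p = 0.303). Cox8b had 4.62, 6.97 and 5.27 against 5.12 and 5.33 (change 0.40, SE 0.57, adjusted p = 0.691), with the highest value on array 2 and the lowest on array 1. Cox8a had 8.94, 9.68 and 9.35 against 8.83 and 8.84 (change 0.49, SE 0.23, adjusted p = 0.255). Cox6a2 had -2.50, -0.94 and -6.09 against -3.03 and -3.02 (change -0.15, SE 1.61, adjusted p = 0.963), where the value of array 3 was not well above background and lay in an area of weak signal.

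Changes of the other pairs were 0.55 (SE 0.22) for Cox6a1, 0.44 (SE 0.26) for Cox6b1, 0.38 (SE 0.21) for Cox6b2, 0.38 (SE 0.21) for Cox4i2, 0.46 (SE 0.29) for Ndufa4 and -0.26 (SE 0.28) for Ndufa4l2. None of these passed.

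The shift in WAT depended on how the arrays were scaled. Relative to all features the median was 0.43 under the 75th percentile of all probes and 0.43 under that of probes detected on all arrays, where the median of all features itself was -0.16. Under quantile scaling it was -0.017 with 56 members above 0, and with normexp added 0.0068 with 60 above 0. Within slide 2, which held all AP20187 arrays and 1 vehicle array, it was 0.36. With 1 vehicle array there, taken to vary like the other groups, the 0 calls of that fit say little. The 3 AP20187 arrays had 49.0% to 51.5% of spots well above background against 61.2% and 64.0% on the vehicle arrays, and the part of this difference in the shift was not tested.

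**Figure D5:**
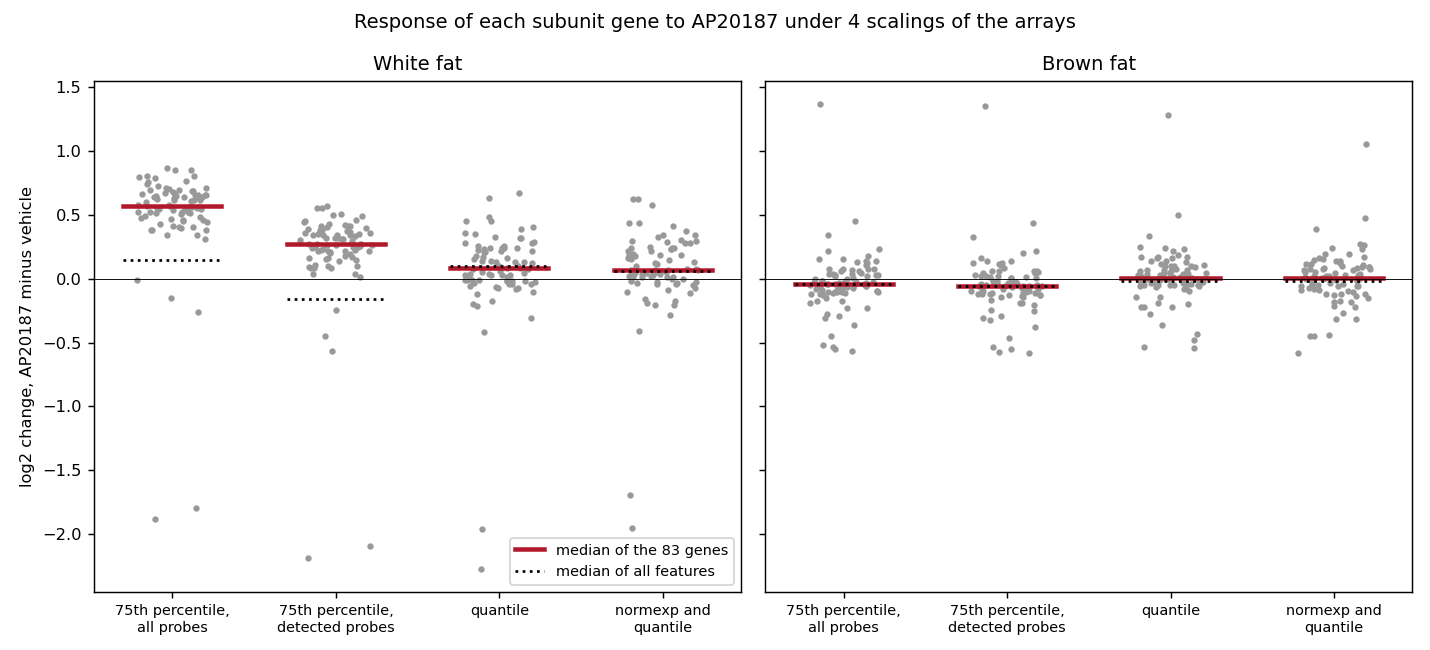
Log2 change with AP20187 relative to vehicle of each subunit gene (dots) in white and brown fat under 4 scalings of the arrays, with the median of the 83 genes (red line) and of all features (dotted line). In white fat the red line lies 0.43 above the dotted line under both percentile scalings and within 0.02 of it under both quantile scalings.

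Of 69 tested genes in the related lists, 1 passed in WAT (1.45%), against 2.35% of all features. Timmdc1, which helps to build the membrane arm of complex I, rose with AP20187, with 4.46, 4.91 and 4.66 on WAT AP20187 1 to 3 against 3.78 and 3.64 with vehicle (change 0.97, SE 0.20, adjusted p = 0.0473). No other assembly factor, electron carrier or regulator passed. List medians were 0.41 for factors of complex I, 0.35 for II, 0.47 for III, 0.52 for IV and 0.32 for V, 0.48 for carriers and 0.27 for regulators. The change was 0.45 (SE 0.34, adjusted p = 0.455) for Ppargc1a, 1.02 (SE 0.28, adjusted p = 0.0838) for Esrra and 0.24 (SE 0.15, adjusted p = 0.368) for Nrf1, and none of the 3 passed.

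In brown fat of Fv2E-PERK mice, 0 of 83 subunit genes passed the test between AP20187 and vehicle, where 2 features (0.00817%) passed in all. At an unadjusted p under 0.05, 0 members were higher and 2 lower, against 3.71% and 3.66% of all features. The median change was -0.039 against -0.042 over all features, and 31 members were above 0, against 45.5% of all features. AP20187 values lay wholly above vehicle values for 0 members and wholly below for 14, against 15.7% and 21.6% of all features. BAT AP20187 1 and 2 lay between the vehicle arrays for 62 and 66 of 83 members, a count not made over all features.

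The 5 smallest p-values in BAT belonged to genes with a mean below that of vehicle, and for Sdhd the groups overlapped. Ndufb7 had 8.13 and 8.28 on the BAT AP20187 arrays against 8.79 and 8.75 on the vehicle arrays, a change of -0.56 (SE 0.20, adjusted p = 0.549). Cox6b2 had 0.47 and 0.54 against 0.74 and 1.37 (change -0.55, SE 0.23, adjusted p = 0.653), Ndufa4l2 had 2.28 and 2.24 against 2.56 and 3.04 (change -0.53, SE 0.30, adjusted p = 0.785), Sdhc had 6.74 and 6.82 against 7.30 and 7.29 (change -0.52, SE 0.30, adjusted p = 0.797) and Sdhd had 8.19 and 8.52 against 9.08 and 8.51 (change -0.44, SE 0.27, adjusted p = 0.81). Cox7a1 had 10.14 and 10.20 with AP20187 against 10.30 and 9.73 with vehicle, and Cox8b had 10.35 and 10.36 against 10.58 and 9.98. The sign of the module turned with the vehicle array kept: the median relative to all features was -0.18 without BAT vehicle 3 and 0.16 without BAT vehicle 2. No assembly factor, carrier or regulator of the lists passed in BAT.

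The difference between the responses of WAT and BAT passed for no member and for 0% of all features. At an unadjusted p under 0.05 it was above 0 for 17 members and below 0 for none, against 12.1% and 4.48% of all features. It was positive for 79 members against 58.3% of all features, with a median of 0.62 against 0.16. Ndufb7 had the widest gap among the 5 smallest p-values, with 1.23 (SE 0.27, adjusted p = 0.13), since its change was 0.67 in WAT and -0.56 in BAT. The others were Ndufb10 at 0.92 (SE 0.29, adjusted p = 0.176), Ndufa11 at 0.93 (SE 0.27, adjusted p = 0.162), Cox6b2 at 0.94 (SE 0.31, adjusted p = 0.193) and Ndufc2 at 0.93 (SE 0.33, adjusted p = 0.219), where Ndufa11 lacked a value on WAT AP20187 2. Under quantile scaling the median relative to all features was -0.028.

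White fat of Fv2E-PERK mice given vehicle was last compared with white fat of wild-type mice. All wild-type arrays and WAT vehicle 1 lay on slide 1 and WAT vehicle 2 on slide 2, so slide and group partly coincide. No subunit passed, where 6 features (0.0245%) did in all. At an unadjusted p under 0.05, 0 members were higher and 0 lower, against 3.02% and 2.04% of all features. The median difference was 0.047 against 0.020 over all features, 55 members were above 0 against 52.6%, and 8 lay wholly above wild type and 4 wholly below, against 19.5% and 15.3%. Cox6b2 had -0.17 and -0.37 with vehicle against 0.098, 0.023 and 0.34 in wild type (difference -0.43, SE 0.21, adjusted p = 1), and Cox4i2 had 0.24 and 0.058 against 0.85, 0.45 and 0.35 (difference -0.41, SE 0.21, adjusted p = 1). Cox7a1 had 2.62 and 3.40 against 3.36, 3.38 and 3.31 (difference -0.34, SE 0.39, adjusted p = 1), Ndufa11 had 4.10 and 4.16 against 4.38, 4.37 and 4.24 (difference -0.20, SE 0.18, adjusted p = 1) and Ndufb5 had 5.42 and 5.48 against 5.26, 5.31 and 5.14 (difference 0.21, SE 0.24, adjusted p = 1). Vehicle values lay wholly below wild type for Cox6b2, Cox4i2 and Ndufa11 but overlapped for Cox7a1. All 10 liver markers had a higher mean with vehicle than in wild type, with a median difference of 2.29 and 0 passing, and their part in these values was not tested. The same vehicle arrays serve as the comparison for AP20187 in WAT.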

How the data were processed

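Total RNA of 13 adipose tissue samples was measured on 1-colour Agilent arrays. The deposited signal is an intensity that Agilent Feature Extraction (version 10.7.1.1 per the submitters' processing notes) had corrected for background, per the file headers, without scaling between arrays. The authors' value table equalled it within 0.1% for 99.0% to 99.2% of its values. Of 55681 probes, 26574 were named to 1 gene through RefSeq records (GRCm38.p6) and 57 had conflicting names. Outlier spots were dropped, spots of a probe were averaged, and the log2 signal was reduced by the 75th percentile of each array. A probe was tested where all arrays of 1 or more groups read it well above background. The brightest probe stood for a gene, which gave 24467 features, 15255 of them named.

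All 12 arrays of the 5 groups entered 1 model without covariates (limma 3.58.1, lmFit and eBayes, R 4.3.3), with p-values adjusted by Benjamini-Hochberg and called under 0.05. The steps were tested on simulated data. The number of arrays limits the precision. Genes named are fixed core subunits (1 of them is not reported here), fixed isoform pairs, the 6 largest differences past the threshold and, where fewer than 3 passed, the 5 smallest p-values. Of related lists the text names up to 4 genes that passed, with Ppargc1a, Esrra and Nrf1. Members and lists were chosen with earlier results of these data known. Other genes given with values (Ndufb4, Cox7a2l, Atp5g2, Atp5g3, Atp5j, Atp5c1, Ndufa6, Uqcrc2, Uqcr11, Dhodh) were chosen after their values were seen. A bound ("at least") takes the dim group at its own signal or, if higher, at the lowest signal well above background on that array. Alternatives were other scalings and background correction, the authors' table, filters on dim probes, probe averaging, the arrays fitted, a trended prior, slide and replicate blocks, and arrays left out. The 13th array, with contradictory labels, was left out.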

Additional observations from a re-analysis of the deposited data

How the results depend on the processing

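Brown against white fat under vehicle kept the direction of the module median in all 25 alternatives. Relative to all features that median was 1.31 under quantile scaling and 1.28 with normexp added. It was 1.90 to 2.27 with each array left out and 2.05 with the replicate block, where 75 members passed. Numbers of members that passed are given here without the share of all features called in those fits. They therefore do not show that the subunits stand out. Leaving out arrays moved the number of members that passed between 72 and 77, where some fits left 1 array in a group. For WAT AP20187 against vehicle the relative median was -0.017 under quantile scaling, 0.0068 with normexp added, and 0.31 to 0.57 with each array left out. Calls there, given without the share of all features called, were 0 to 34 with arrays left out, the 34 without WAT AP20187 1. They were 3 without a filter on dim probes, 3 with a stricter filter and 3 with a trended prior (Cox4i1, Ndufb10 and Ndufb7 each time), and 2 with slide as a random block (Ndufb10 and Ndufb7). The WAT minus BAT difference had a relative median of -0.028 under quantile scaling, 0.016 with normexp added and 0.29 to 0.63 with each array left out, with 0 to 2 calls, the 2 without WAT AP20187 1 being Ndufb7 and Sdhc. The BAT response ran from -0.18 to 0.16 and vehicle against wild type from -0.03 to 0.06 when arrays were left out. The cause of these moves was not tested, except that leaving out arrays leaves fewer samples.

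Whether equal replicate numbers mark paired samples could not be decided. Same-numbered arrays of WAT AP20187 and vehicle correlated at 0.10 and -0.04, and those of vehicle and wild type at -0.22 and -0.08. Those of BAT AP20187 and vehicle correlated at 0.10 and those of BAT and WAT vehicle at 0.04, with 1 or 2 such pairs in each comparison. In a group of 2 arrays the deviations mirror each other, so these values can neither show nor exclude pairing. With the replicate block the relative medians were 0.45 for the WAT response (0 calls), 0.00 for the BAT response, 0.48 for their difference and -0.00 for vehicle against wild type.

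Single genes whose sign turned were all in the WAT response unless stated. With the authors' table they were Ndufa5 (-1.35), Ndufs1 (-0.075), Ndufv1 (-0.82) and Cox6a2 (1.101). With quantile scaling they were Sdhb (-0.044), Atp5a1 (-0.17), Atp5b (-0.31), Cox8a (-0.070) and Cox6a2 (0.13), and with normexp added Sdhb (-0.035), Atp5a1 (-0.21), Atp5b (-0.28), Ndufa4 (-0.035) and Cox6a2 (0.13). Uqcrc1 was 0.71 without both arrays that carry epididymal transcripts (WAT AP20187 1 and 2), which leaves 1 AP20187 array. Its change was 0.25 without areas of weak signal and -3.05 to 0.26 with arrays left out (0.26 without WAT AP20187 2). Cox6a2 was 0.034 with the replicate block, 1.27 without areas of weak signal and -1.27 to 1.31 with arrays left out (1.31 without WAT AP20187 3). Cox8b was -0.28 to 0.90 with arrays left out (-0.28 without WAT AP20187 2), and Cox7a1 in vehicle against wild type -0.73 to 0.053 (0.053 without WAT vehicle 1). Leaving out areas of weak signal was chosen after seeing the data.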

Other observations

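The 13th array has labels that contradict each other on its tissue and went into no group. The median level of the 83 subunit genes on it was 6.44, and the mean of the 11 brown adipocyte markers was -0.71.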
